A study of Mus musculus with 12 samples.

Results

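The genes described here are the 10 mouse genes of the cGAS-STING pathway Cgas, Sting1, Tbk1, Ikbke, Irf3, Trex1, Ifi204, Zbp1, Samhd1 and Enpp1, chosen by name from the pathway out of 40551 genes counted. No rule on their values was used, but earlier results of these data were known when they were chosen. The 10 genes were followed through 12 total RNA-seq libraries of mouse liver, 3 for each of 4 genotypes. WT livers were the controls. Mcl1 KO livers lack the survival gene Mcl1 in hepatocytes, since the study bred Mcl1 floxed mice with mice that express Cre from the albumin promoter (Alb-Cre), so the other cells of the liver keep the gene. Sting1 KO mice carry the Sting1 deletion in every cell and have Mcl1, and Mcl1 Sting1 DKO mice carry both deletions and came from a cross of those lines. WT and Mcl1 KO mice were 2 months old, mice of both sexes were used, and for the other groups no age stands beside the libraries. The labels do not say whether each library came from a separate mouse, so the p-values measure the spread between these libraries.

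As background, cGAS is an enzyme that binds double-stranded DNA in the cytosol and makes the cyclic dinucleotide cGAMP, which binds the adaptor STING on the endoplasmic reticulum. STING then travels to the Golgi and brings the kinase TBK1, and the related kinase IKKε, to the transcription factor IRF3 and to NF-κB, which switch on type I interferons and inflammatory genes. Nucleases that remove DNA and enzymes that break down cGAMP hold the pathway back. In the liver the pathway is known mainly from macrophages (Kupffer cells), endothelial cells and other nonparenchymal cells, and hepatocytes are known for little STING.

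The 10 genes passed the filter on low counts and were among 15070 genes tested with edgeR's quasi-likelihood test. The libraries held 28826367 to 45266387 counts on genes. Values are given as CPM, which is counts relative to a library's total after TMM scaling (a scaling that takes the bulk of genes as level between libraries), and, where genes are compared with each other, as TPM, which also divides by transcript length. A gene counts as called at an adjusted p under 0.05 (Benjamini-Hochberg over the genes tested). Library facts that bear on the results below are that small structured RNAs took 0.283, 2.37 and 1.36% of the counts in Mcl1 KO replicates 1, 2 and 3 against 0.172 to 0.897% in the other 9 libraries, that Y-linked genes had 4233 to 5294 counts in WT 2, WT 3 and Mcl1 Sting1 DKO 1 and 0 to 6 in the rest, and that skeletal muscle markers summed to 1172 CPM in Mcl1 KO 3 and to at most 6.58 elsewhere. By their Y-linked counts, WT 2, WT 3 and Mcl1 Sting1 DKO 1 read as male, and no Mcl1 KO or Sting1 KO library did. Sex therefore cannot be fully told apart from genotype in Mcl1 KO against WT or in Sting1 KO against WT. Hepatocyte markers summed to 99584 to 163176 CPM in the 12 libraries, so the tissue label held.

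The targeted genes were looked at first. Mcl1 stood at 98.6 ± 7.36 CPM in WT (mean ± SD, n = 3, as below), 28.96 ± 4.58 in Mcl1 KO, 22.3 ± 3.96 in the libraries labelled Mcl1 Sting1 DKO and 81.8 ± 7.20 in those labelled Sting1 KO, and it fell by 1.77 on the log2 scale in Mcl1 KO against WT (SE 0.16, adjusted p = 0.000605, edgeR). Sting1 (ENSMUSG00000024349) had 40 to 112 counts in the libraries labelled Sting1 KO and 57 to 104 in those labelled Mcl1 Sting1 DKO, against 64 to 96 in WT. These ranges overlap, and gene totals therefore did not show the Sting1 deletion against WT. Against Mcl1 KO, the libraries labelled Mcl1 Sting1 DKO stood lower without overlap, at 1.90 to 2.53 against 3.67 to 5.997 CPM, as given below. The study checked the knockout line at the protein level by Western blotting, which is not analysed here. Whether a transcript outlasts the deletion cannot be told from counts per gene, and these groups are named by their labels throughout.

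The start of each gene is where an interferon-driven feedback on the pathway would be read, and the genome sequence there was searched for the core of the interferon-stimulated response element (GAAANNGAAA, the letters bound by IRF and STAT complexes) on both strands, in the 250 bases before the annotated start. It was in 3 of the 10 promoters, those of Tbk1, Ifi204 and Zbp1, or 30%, against 3.32% of 21581 promoters and 14 of 32 interferon target genes (43.8%). They are shown because they separate these 3 genes by sequence from the other 7. Each reads 5′ to 3′ toward the start of the gene (GRCm39 genome, GENCODE vM39 starts), with the core in capitals, and as TTTCNNTTTC where it lies on the opposite strand.
Tbk1, chr10:121422754-121423003, minus strand: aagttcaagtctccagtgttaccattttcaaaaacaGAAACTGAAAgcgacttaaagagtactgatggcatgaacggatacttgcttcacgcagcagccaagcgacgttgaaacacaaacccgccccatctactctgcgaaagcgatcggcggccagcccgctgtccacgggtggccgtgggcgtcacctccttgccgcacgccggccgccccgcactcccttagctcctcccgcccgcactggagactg
Ifi204, chr1:173594611-173594860, minus strand: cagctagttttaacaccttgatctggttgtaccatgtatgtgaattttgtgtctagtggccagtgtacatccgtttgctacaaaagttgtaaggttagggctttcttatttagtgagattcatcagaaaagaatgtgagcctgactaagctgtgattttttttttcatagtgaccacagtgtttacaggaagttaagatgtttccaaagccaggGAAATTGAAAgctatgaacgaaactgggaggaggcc
Zbp1, chr2:173060725-173060974, minus strand: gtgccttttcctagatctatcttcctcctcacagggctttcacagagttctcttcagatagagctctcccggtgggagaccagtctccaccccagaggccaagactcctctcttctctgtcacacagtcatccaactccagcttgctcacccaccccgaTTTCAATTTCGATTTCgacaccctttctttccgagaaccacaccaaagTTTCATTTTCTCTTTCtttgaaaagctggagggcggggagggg

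The Zbp1 promoter holds 4 matches, some of which overlap each other, whose first bases lie 91, 85, 43 and 37 bases before the start. Ifi204 has 1 match at 36 bases and Tbk1 has 1 at 214 bases before the start. The other element searched was the gamma-interferon-activated site (GAS, TTCNNNGAA), found before Sting1, Zbp1 and Samhd1 (3 of 10) and in 7.73% of the 21581 promoters. The matches are letters in a window and not shown binding sites. Of the 3 genes with the response element, Ifi204 was called higher in Mcl1 KO, while Tbk1 and Zbp1 were not called in any comparison. A call in 1 gene and none in another does not show that they differ. Ifi204 and Zbp1 ran together over the 12 libraries (Pearson r = 0.863), while Tbk1 was at -0.5 with Ifi204 and at -0.197 with Zbp1.

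Measured per length, the pathway spanned a wide range of levels. In WT livers Irf3 stood at 47.8 ± 0.626 TPM, Trex1 at 29.4 ± 5.99, Tbk1 at 18.1 ± 0.854, Enpp1 at 14.1 ± 4.79, Ifi204 at 9.58 ± 2.92, Samhd1 at 6.999 ± 1.19, Ikbke at 6.96 ± 1.68, Zbp1 at 5.94 ± 2.55, Sting1 at 2.66 ± 0.351 and Cgas at 0.230 ± 0.128. The sensor and the adaptor that give the pathway its name were thus its lowest transcripts, below the kinase and the transcription factor they act on. Along this order the WT libraries of neighbouring genes did not overlap between Irf3 and Trex1, between Trex1 and Tbk1 and between Sting1 and Cgas, while the remaining neighbours overlapped. Trex1 is the uncertain entry, because its 1147 exon bases lie within exons of Atrip on the same strand, so that the counting decides how reads are shared between them.

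**Figure D1:**
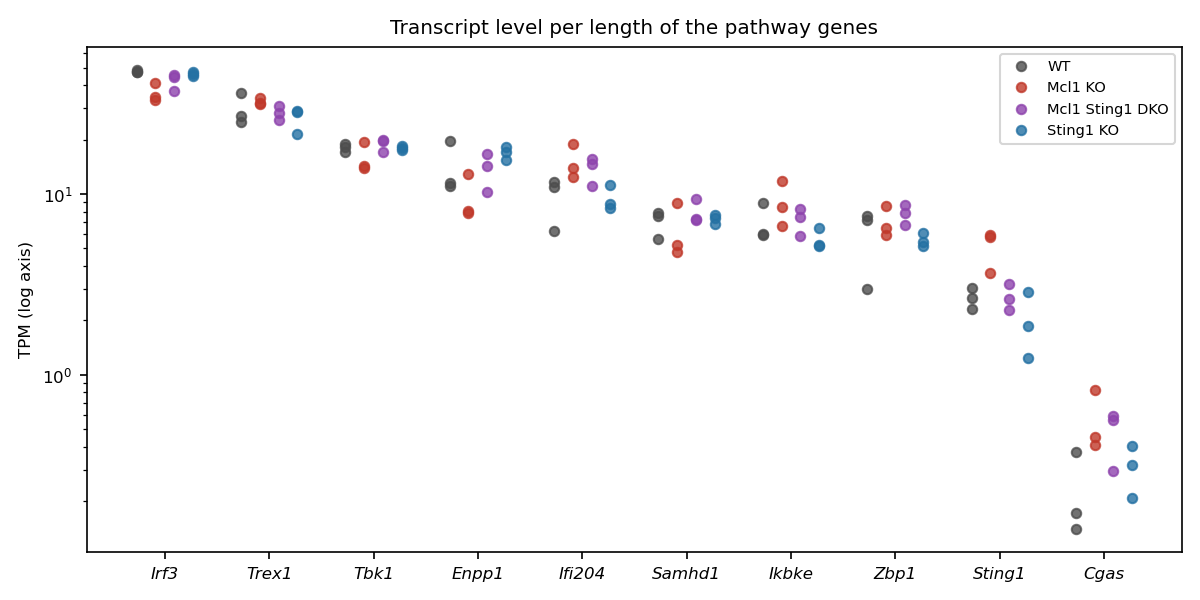
TPM (level per transcript length, log axis) of the 10 pathway genes in the 12 liver libraries, 1 point per library, with genes ordered by their WT mean and colours for the 4 genotypes. Irf3 lies between 33.0 and 48.5 TPM and Cgas between 0.140 and 0.824 TPM, with the other 8 genes between them.

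Comparing Mcl1 KO with WT asks how the pathway's own transcripts differ in a liver whose hepatocytes are driven into apoptosis and renewal. Sting1 and Ifi204 were higher and Irf3 was lower in Mcl1 KO, by 2.01-fold, 1.63-fold and to 0.789 of WT, and the other 7 genes were not called. These 3 of 10 compare with 20.2% of all tested genes called (10.8% higher and 9.43% lower), so the pathway genes were called at about the rate of the liver transcriptome as a whole. Of the 10, 6 did not overlap between the 3 Mcl1 KO and the 3 WT libraries (Cgas, Sting1 and Ifi204 higher, Tbk1, Irf3 and Enpp1 lower), against 33.3% of all tested genes. The median log2 fold change of the 10 genes was 0.25, and that of all tested genes was -0.005.

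**Figure D2:**
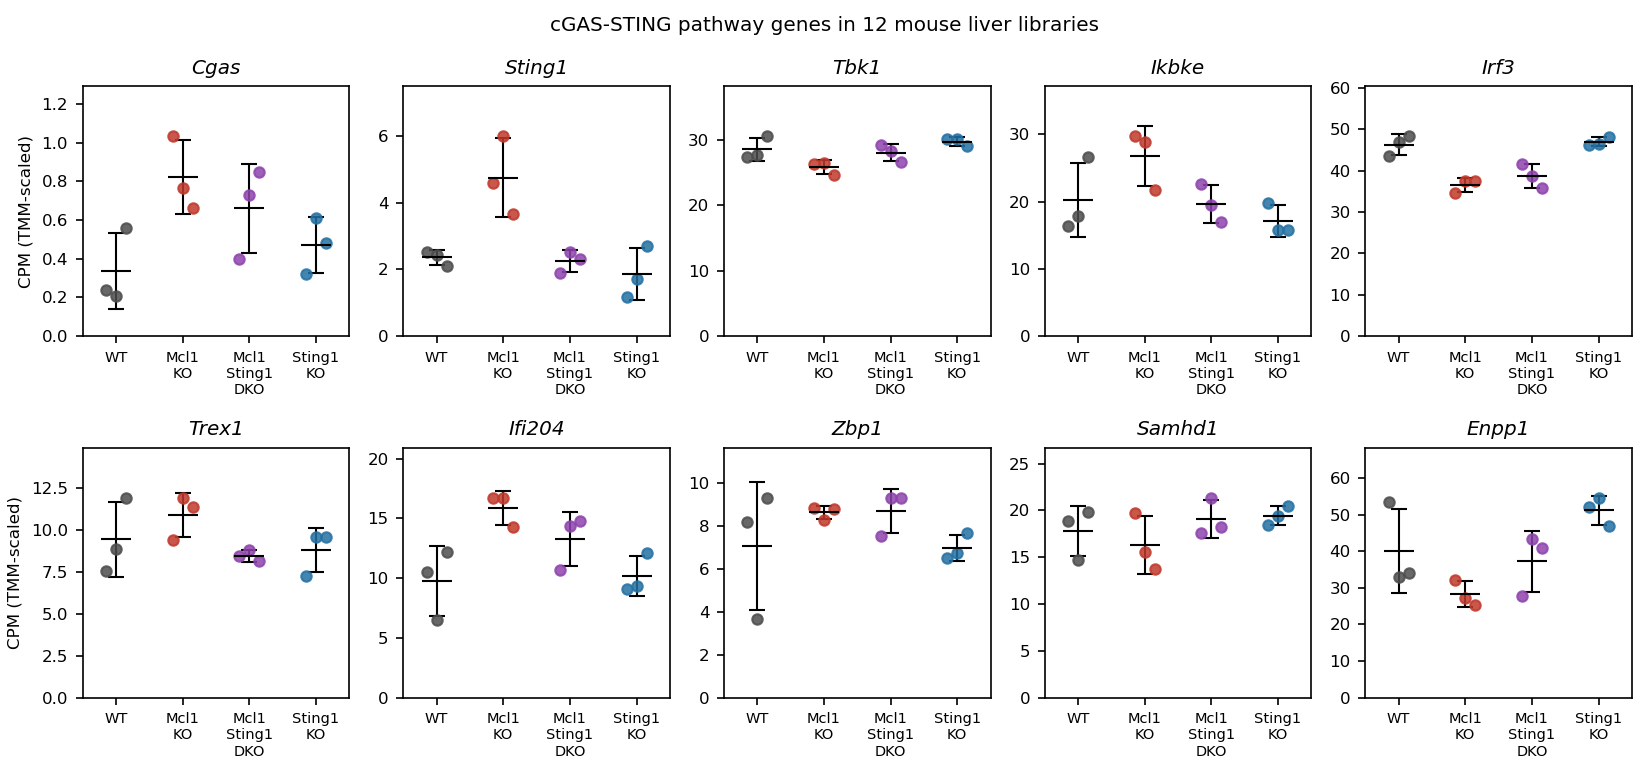
CPM (TMM-scaled, linear axes from 0) of each pathway gene in WT, Mcl1 KO, Mcl1 Sting1 DKO and Sting1 KO libraries, with 1 point per library, the mean as a long bar and the SD as whiskers (n = 3). The 3 Mcl1 KO libraries lie above the other 9 for Sting1 (3.67 to 5.997 CPM against at most 2.70), and for Irf3 the 6 libraries with the Mcl1 deletion lie below the 6 without it.

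Cgas (ENSMUSG00000032344, chromosome 9, 78337802 to 78350535, minus strand, 5 exons) encodes the DNA sensor itself. It was measured at 0.237, 0.208 and 0.561 CPM in WT (replicates 1, 2 and 3, as below), 1.03, 0.765 and 0.664 in Mcl1 KO, 0.401, 0.731 and 0.848 in the libraries labelled Mcl1 Sting1 DKO and 0.320, 0.610 and 0.483 in those labelled Sting1 KO. The Mcl1 KO libraries stood above every WT library, with WT 3 nearest to them. The libraries labelled Mcl1 Sting1 DKO reached into both ranges, and those labelled Sting1 KO stayed below the Mcl1 KO range. With 7 to 17 counts in WT and 21 to 50 in Mcl1 KO, this gene rests on the fewest reads of the 10. Its log2 fold change in Mcl1 KO against WT was 1.31 (SE 0.45, 95% interval 0.34 to 2.28), and it missed the threshold (adjusted p = 0.0562, edgeR). The call turned on 1 WT library: without WT 3 the log2 fold change was 1.87 (adjusted p = 0.0334, edgeR), and DESeq2 called it with the 12 libraries (adjusted p = 0.0469).

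Sting1 (chromosome 18, 35866732 to 35873607, minus strand, 8 exons) encodes the adaptor that receives cGAMP. Its values were 2.53, 2.43 and 2.11 CPM in WT, 4.59, 5.997 and 3.67 in Mcl1 KO, 1.90, 2.53 and 2.33 in the libraries labelled Mcl1 Sting1 DKO and 1.16, 1.72 and 2.70 in those labelled Sting1 KO. The Mcl1 KO group was the 1 group that stood apart, and its 3 libraries lay above the 9 others. Sting1 rose in Mcl1 KO by 1.01 on the log2 scale (SE 0.29, 95% interval 0.37 to 1.64, adjusted p = 0.0324, edgeR). The call was lost without WT 1 (adjusted p = 0.0552), WT 2 (0.0887), WT 3 (0.100) or Mcl1 KO 2 (0.130), the library with the highest value, while the log2 fold change stayed between 0.81 and 1.16 over the 12 edgeR fits that each left out 1 library.

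Tbk1 (ENSMUSG00000020115, chromosome 10, 121382360 to 121422848, minus strand, 21 exons) encodes the kinase that phosphorylates STING and IRF3. It had 27.3, 27.8 and 30.6 CPM in WT, 26.4, 26.5 and 24.7 in Mcl1 KO, 29.2, 28.3 and 26.7 in the libraries labelled Mcl1 Sting1 DKO and 30.1, 30.1 and 29.03 in those labelled Sting1 KO. Relative to its level it had the narrowest range of the 10 genes, 24.7 to 30.6 CPM over 12 libraries, and its log2 fold change in Mcl1 KO was -0.14 with a 95% interval of -0.37 to 0.08. The Mcl1 KO libraries lay just under WT in CPM, but in TPM Mcl1 KO 1, at 19.3, lay above the 3 WT libraries. Ikbke (ENSMUSG00000042349, chromosome 1, 131182080 to 131207346, minus strand, 22 exons), which encodes IKKε, the inducible relative of TBK1, was more spread, at 16.4, 17.9 and 26.6 CPM in WT and 29.7, 28.9 and 21.7 in Mcl1 KO. WT 3 overlapped the Mcl1 KO range, and the log2 fold change of 0.40 (SE 0.20) had an adjusted p of 0.169 (edgeR). The 2 remaining groups had 22.6, 19.4 and 17.0 (labelled Mcl1 Sting1 DKO) and 19.8, 15.8 and 15.8 CPM (labelled Sting1 KO). Of the exon bases of Ikbke, 3.21% are shared with 2 lncRNA genes on the opposite strand.

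Irf3 (ENSMUSG00000003184, chromosome 7, 44647033 to 44652272, plus strand, 8 exons) encodes the transcription factor that TBK1 activates, and it was the one core component that fell. It had 43.6, 47.0 and 48.4 CPM in WT, 34.7, 37.4 and 37.5 in Mcl1 KO, 41.7, 38.8 and 35.9 in the libraries labelled Mcl1 Sting1 DKO and 46.3, 46.6 and 48.3 in those labelled Sting1 KO. The 6 libraries with the Mcl1 deletion, at 34.7 to 41.7 CPM, lay below the 6 without it, at 43.6 to 48.4. Irf3 fell by 0.34 on the log2 scale in Mcl1 KO against WT (SE 0.11, adjusted p = 0.0431, edgeR). The call held in 4 of the 12 fits that left out 1 library, without WT 1, Mcl1 KO 1, Mcl1 Sting1 DKO 1 or Mcl1 Sting1 DKO 3, with the log2 fold change between -0.39 and -0.31 and a highest adjusted p of 0.121. In the libraries labelled Mcl1 Sting1 DKO against those labelled Sting1 KO its log2 fold change was -0.28 (SE 0.11, adjusted p = 0.331), where 0.803% of all tested genes were called.

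The mean over both Sting1 backgrounds, a comparison of 6 with 6 libraries that was added after the values had been seen, gave a log2 fold change of -0.31 for Irf3 (SE 0.08, adjusted p = 0.0172, edgeR, with 16.7% of all tested genes called). It was called in each of the 12 fits that left out 1 library (-0.34 to -0.27, highest adjusted p = 0.0435). Of the 10 genes, Irf3 was without overlap in this comparison, against 6.95% of all tested genes (2.67% lower). The size of its fall depends on how libraries are scaled. On total counts without TMM factors the log2 fold change in Mcl1 KO was -0.14 (adjusted p = 0.420) and over both backgrounds -0.15 (adjusted p = 0.228), on a scale on which the median of all genes was shifted by 0.19 and 0.14 in the same comparisons. In TPM the Mcl1 KO libraries (33.0 to 41.2) stayed below WT (47.3 to 48.5), while those labelled Mcl1 Sting1 DKO (37.2 to 45.7) and Sting1 KO (45.2 to 47.2) overlapped. Its exons share 4.17% of their bases with Bcl2l12 and Scaf1 on the opposite strand.

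Of the 10 genes, those that restrain the pathway, Trex1, Samhd1 and Enpp1, were not called in Mcl1 KO against WT. Trex1 (ENSMUSG00000049734, chromosome 9, 108887001 to 108888802, minus strand, 2 exons), the cytosolic 3′ DNA exonuclease, had 7.55, 8.87 and 11.9 CPM in WT, 9.39, 11.9 and 11.4 in Mcl1 KO, 8.42, 8.82 and 8.13 in the libraries labelled Mcl1 Sting1 DKO and 7.27, 9.55 and 9.55 in those labelled Sting1 KO. The Mcl1 KO and WT ranges overlapped, and the log2 fold change was 0.21 (SE 0.18, adjusted p = 0.437, edgeR). Atrip, whose exons contain it and which encodes a partner of the ATR kinase, had a log2 fold change of 0.10 (adjusted p = 0.619). Samhd1 (ENSMUSG00000027639, chromosome 2, 156939453 to 156977187, minus strand, 16 exons), which breaks down dNTPs, had 14.7 to 19.8 CPM in WT, 13.7 to 19.7 in Mcl1 KO, 17.5 to 21.4 in the libraries labelled Mcl1 Sting1 DKO and 18.4 to 20.5 in those labelled Sting1 KO. Its groups overlapped in each comparison, and its log2 fold change in Mcl1 KO was -0.13 (95% interval -0.48 to 0.23).

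Enpp1 (ENSMUSG00000037370, chromosome 10, 24513812 to 24588057, minus strand, 25 exons) encodes the ectoenzyme that hydrolyses extracellular cGAMP. It had 53.4, 32.8 and 34.1 CPM in WT, 32.2, 27.2 and 25.3 in Mcl1 KO, 27.8, 43.2 and 40.9 in the libraries labelled Mcl1 Sting1 DKO and 52.0, 54.7 and 46.9 in those labelled Sting1 KO. The Mcl1 KO libraries lay below WT, with WT 2 close above them, and the libraries labelled Mcl1 Sting1 DKO lay below those labelled Sting1 KO. The log2 fold change in Mcl1 KO was -0.51 (SE 0.21, adjusted p = 0.107, edgeR), and over both Sting1 backgrounds Enpp1 fell by 0.48 (SE 0.15, adjusted p = 0.0465, against 6.83% of all tested genes called lower), a call lost in 10 of the 12 fits that left out 1 library. The 3 libraries with Y-linked counts, WT 2, WT 3 and Mcl1 Sting1 DKO 1, were the lowest of their groups for this gene. Split by these counts after the values were seen, the 9 libraries without them had 46.9 to 54.7 CPM with Mcl1 (4 libraries) and 25.3 to 43.2 with the Mcl1 deletion (5 libraries), and the 3 with them had 32.8 and 34.1 with Mcl1 and 27.8 with the deletion. Setting aside the lowest library of a group widens such a gap by itself, and the split is given as values only. With Y-linked expression in the fit, the log2 fold change in Mcl1 KO was -0.84 (adjusted p = 0.00663), and adjusted for small structured RNA content instead it was -0.19 (adjusted p = 0.749).

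Ifi204 and Zbp1 are sensors that are themselves interferon-inducible, and both carry the response element in the promoters shown above. Ifi204 (ENSMUSG00000073489, chromosome 1, 173574859 to 173594610, minus strand, 9 exons) is the mouse gene most often set beside human IFI16, a DNA sensor that feeds into STING. It had 10.5, 6.53 and 12.2 CPM in WT, 16.7, 16.7 and 14.3 in Mcl1 KO, 10.7, 14.4 and 14.8 in the libraries labelled Mcl1 Sting1 DKO and 9.05, 9.34 and 12.1 in those labelled Sting1 KO. The Mcl1 KO libraries stood above WT, and the libraries labelled Mcl1 Sting1 DKO reached into both ranges. Ifi204 rose in Mcl1 KO by 0.71 (SE 0.22, adjusted p = 0.042, edgeR) and over both Sting1 backgrounds by 0.55 (SE 0.16, adjusted p = 0.0326, in the direction in which 9.9% of all tested genes were called). The first call was lost in 8 of 12 fits that left out 1 library, with the lowest log2 fold change, 0.48 (adjusted p = 0.134), without WT 2, and held without WT 3, without Sting1 KO 3, and without Mcl1 Sting1 DKO 1 or Mcl1 Sting1 DKO 3. The second held in 6 of 12. Ifi204 belongs to a family of near-identical neighbours, and reads may be shared among them.

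Zbp1 (ENSMUSG00000027514, chromosome 2, 173033815 to 173060724, minus strand, 8 exons) encodes a sensor of Z-form nucleic acids that can start necroptosis. It had 8.18, 3.68 and 9.35 CPM in WT, 8.88, 8.29 and 8.79 in Mcl1 KO, 7.55, 9.33 and 9.30 in the libraries labelled Mcl1 Sting1 DKO and 6.52, 6.74 and 7.67 in those labelled Sting1 KO. WT 2 was the low library, and WT 3 lay above the Mcl1 KO range. The log2 fold change of 0.29 (SE 0.26, adjusted p = 0.445) became -0.02 without WT 2. The same WT 2 library was also the lowest of its group for Ifi204 and Samhd1.

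**Figure D3:**
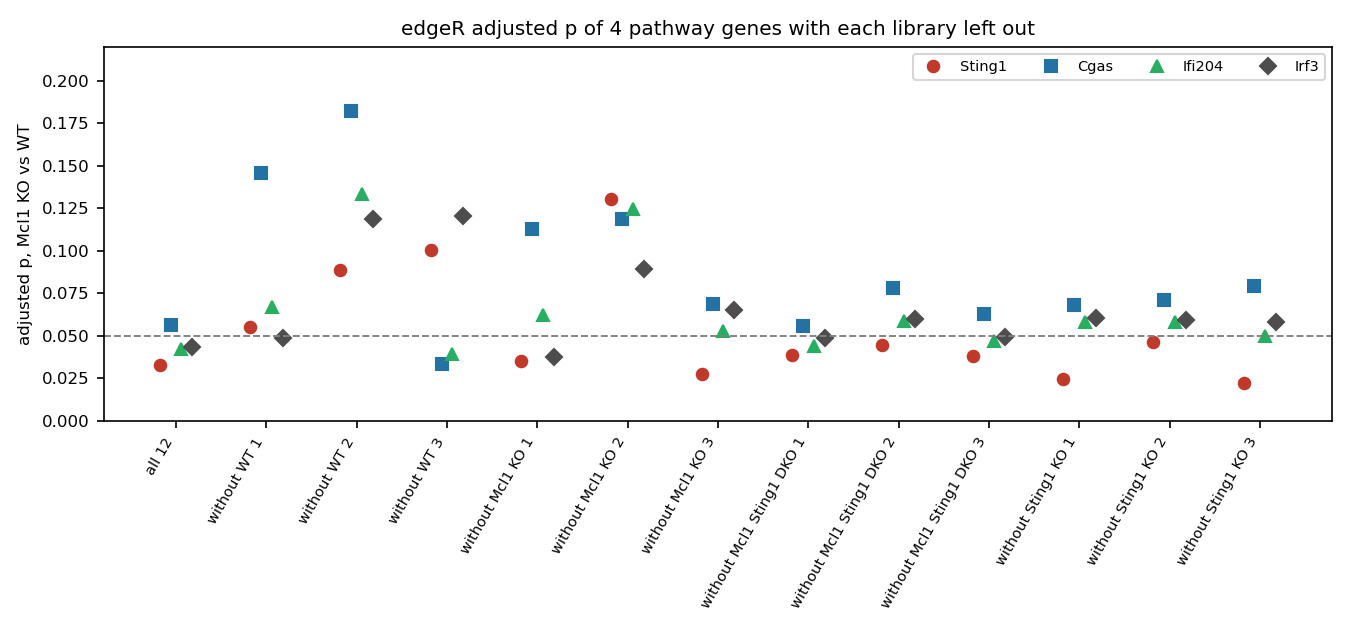
Adjusted p (edgeR, linear axis) of Sting1, Cgas, Ifi204 and Irf3 in Mcl1 KO against WT, with the 12 libraries and with each library left out in turn, the dashed line marking 0.05. Sting1 is under the line in 8 of the 12 fits, Irf3 and Ifi204 in 4 each and Cgas in 1.

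Other cell types moved with these results, and in bulk RNA fewer cells of a type and less RNA per cell cannot be told apart. The 15 macrophage markers summed to 754 to 1181 CPM in WT, 1383 to 1648 in Mcl1 KO, 1292 to 1374 in the libraries labelled Mcl1 Sting1 DKO and 909 to 1238 in those labelled Sting1 KO, and 8 of 15 rose in Mcl1 KO. Monocyte and neutrophil markers summed to 8.48 to 10.3, 22.9 to 56.4, 13.3 to 17.6 and 7.86 to 12.7 CPM in the same order, and the 9 that were tested rose in Mcl1 KO, with Ly6g at 0 in WT and in the libraries labelled Sting1 KO. Dendritic cell markers (3 of 8 higher), stellate markers (5 of 8), lymphocyte markers (2 of 9) and proliferation markers (10 of 10) rose in part or whole, where 10.8% of all tested genes were called higher. The 8 endothelial markers and the 5 cholangiocyte markers were not called, and of the 10 hepatocyte markers 2 were called lower and 0 higher, against 9.43% of all tested genes called lower. The part of these cell types in the changes of Sting1, Ifi204 and Irf3 was not tested. With small structured RNA content or Y-linked expression as a covariate, neither of which measures cell types, none of the 3 calls was kept. The log2 fold changes of Sting1 and Ifi204 were smaller, while that of Irf3 went either way. Adjusted for small structured RNA content, Sting1 was at 0.78 (adjusted p = 0.310), Ifi204 at 0.60 (0.294) and Irf3 at -0.45 (0.0932), and with Y-linked expression they were at 0.82 (0.130), 0.51 (0.185) and -0.26 (0.174).

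The genes whose log2 CPM was most like that of Cgas, among 12550 candidates, were Was (Pearson r = 0.965), a regulator of actin in blood cells, Cd5l (0.952), a product of Kupffer cells, the necroptosis kinase gene Ripk3 (0.949), Fermt3 (0.943), an integrin activator of blood cells, and Pcolce2 (0.942). For Sting1 they were the neutrophil and monocyte gene S100a8 (0.929), the iron hormone gene Hamp (0.916), Trim47 (0.909), S100a9 (0.894) and Cyp4f18 (0.886). S100a8 stood at 0.791 to 1.19 CPM in WT, 2.36 to 6.43 in Mcl1 KO, 1.203 to 1.61 in the libraries labelled Mcl1 Sting1 DKO and 0.495 to 1.81 in those labelled Sting1 KO, and as with Sting1 its highest library was Mcl1 KO 2. For Zbp1 they were Gbp5 (0.948), Sp100 (0.904), Ifit2 (0.898), Tgtp1 (0.88) and Cxcl10 (0.876), among them well-known interferon targets. WT 2, the lowest library for Zbp1, was also the lowest for Gbp5, at 0.712 CPM. These are the highest of many correlations over 12 libraries that share genotype and depth, and are given as a description.

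Between the 10 genes themselves, log2 CPM over the 12 libraries ran together for Ifi204 and Zbp1 (Pearson r = 0.863), Cgas and Ifi204 (0.862) and Tbk1 and Irf3 (0.774). It ran opposite for Irf3 and Ifi204 (-0.764) and for Sting1 and Tbk1 (-0.744). Not every pair of partners ran together: Ikbke, the other kinase of IRF3, was at -0.442 with Irf3 and at -0.221 with Tbk1, and Cgas was at 0.502 with Sting1. Genotype is shared by the points of each of these descriptions.

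Comparing Mcl1 KO with the libraries labelled Mcl1 Sting1 DKO asks what the loss of Sting1 changes in the Mcl1-deleted liver. No member of the pathway was called, and no gene at all was (0.0% of 15070, edgeR), although 3098 genes had an unadjusted p under 0.05 (20.6%) and DESeq2 called 681 (4.77%). Sting1 stood farthest from no change, with a log2 fold change of -1.07 (SE 0.29, 95% interval -1.71 to -0.43, unadjusted p = 0.00328, adjusted p = 0.134, edgeR). Its 3 libraries labelled Mcl1 Sting1 DKO, at 1.90 to 2.53 CPM, lay within or near the WT range of 2.11 to 2.53 and below Mcl1 KO. DESeq2 called it (adjusted p = 0.0221), and so did edgeR without Mcl1 KO 1 (-1.09, adjusted p = 0.0415). The genes without overlap were Sting1 and Trex1, lower, and Tbk1, higher, 3 of 10 against 18.2% of all tested genes. Tbk1 stood apart narrowly in CPM, with Mcl1 Sting1 DKO 3 at 26.65 and Mcl1 KO 2 at 26.53. In TPM its groups overlapped, with Mcl1 KO 1 at 19.28 above Mcl1 Sting1 DKO 3 at 16.99.

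Ikbke had a log2 fold change of -0.45 (unadjusted p = 0.0467, adjusted p = 0.237) and Trex1 of -0.36 (95% interval -0.76 to 0.04). Atrip, which contains Trex1, had -0.26. Its groups met in CPM, with Mcl1 Sting1 DKO 1 at 16.1363 and Mcl1 KO 1 at 16.1366. In TPM they overlapped, with Mcl1 Sting1 DKO 2 at 5.598 above Mcl1 KO 2 at 5.333. Cgas was at -0.31 (95% interval -1.23 to 0.60), Ifi204 at -0.26 (-0.74 to 0.22) and Zbp1 at 0.01 (-0.56 to 0.59), so that a fall or rise of a size like the one seen in Mcl1 KO lies inside some of these intervals. Enpp1 was at 0.40, Samhd1 at 0.22, Tbk1 at 0.12 and Irf3 at 0.09. The median of the 10 genes was -0.12, and that of all tested genes was -0.002. This comparison shares the 3 Mcl1 KO libraries with the comparison against WT, and they are therefore not independent: Sting1 was at 1.01 and -1.07 in them, Ikbke at 0.40 and -0.45, Enpp1 at -0.51 and 0.40, and Irf3 at -0.34 and 0.09.

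**Figure D4:**
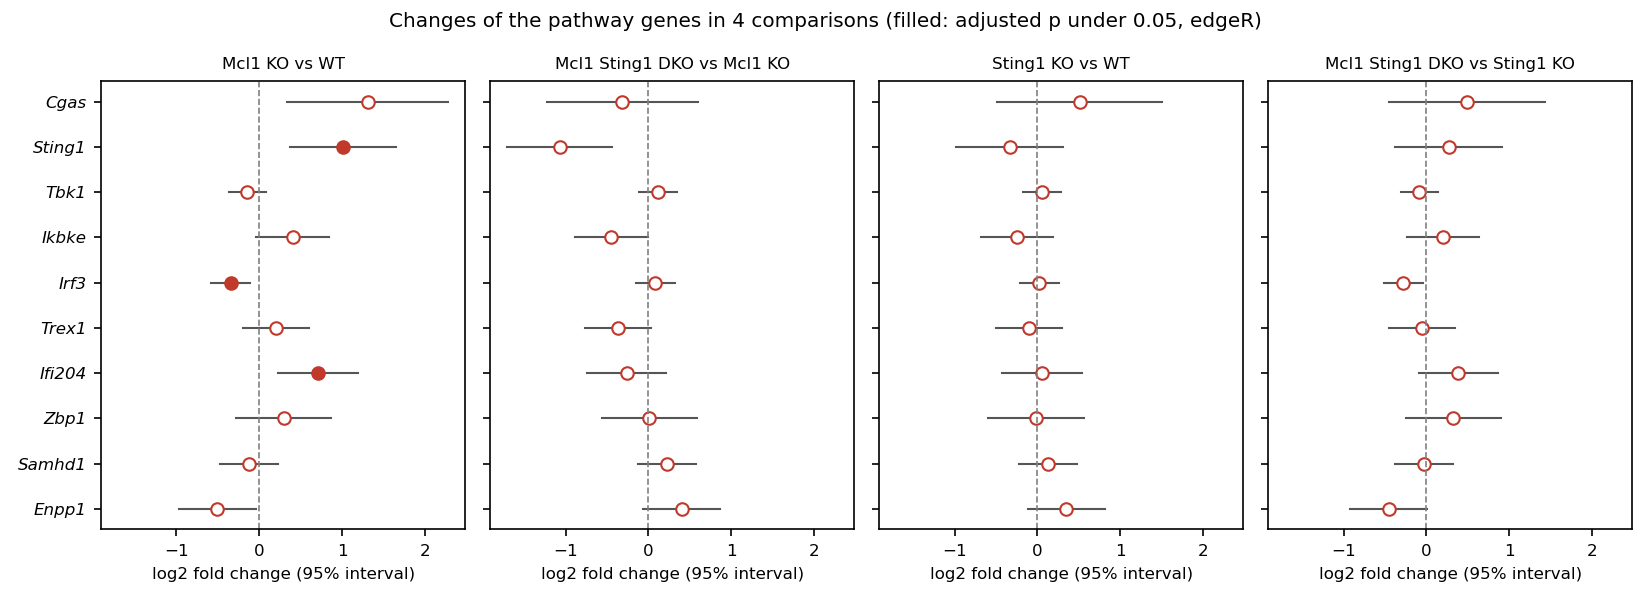
Log2 fold change of the 10 pathway genes (edgeR, points) with 95% intervals (bars) in 4 comparisons, filled where the adjusted p is under 0.05. Filled points appear for Sting1, Irf3 and Ifi204 in Mcl1 KO against WT, and the 3 other comparisons have open points.

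With Mcl1 in place, the libraries labelled Sting1 KO were close to WT in these genes. No member was called, nor was any of the 15070 genes (821 had an unadjusted p under 0.05, 5.45%, and DESeq2 called 51, 0.264%), and no member separated from WT, against 12.5% of all tested genes without overlap. Sting1 was at -0.34 (SE 0.30, 95% interval -0.98 to 0.31, adjusted p = 0.998, edgeR), Cgas at 0.51 (-0.49 to 1.51) and Enpp1 at 0.35 (-0.11 to 0.81). The interval of Tbk1, -0.17 to 0.29, and that of Irf3, -0.21 to 0.26, were the narrowest.

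In the libraries labelled Mcl1 Sting1 DKO against those labelled Sting1 KO, both carrying the Sting1 KO label and differing in the Mcl1 deletion, none of the 10 genes was called, against 0.803% of all genes (DESeq2 2.95%), and Irf3 and Enpp1 lay lower without overlap, against 22.3% of all genes. Ifi204 had a log2 fold change of 0.39 (95% interval -0.09 to 0.86), Cgas of 0.49 (-0.45 to 1.43), Zbp1 of 0.32 (-0.25 to 0.90) and Sting1 of 0.27 (-0.37 to 0.92). Whether the Mcl1 deletion acts differently between the Sting1 labels was tested as an interaction, in which no gene was called (0.0% of 15070, 2165 at an unadjusted p under 0.05, and 170, or 1.15%, by DESeq2). The largest differences among the 10 were for Cgas, -0.82 (SE 0.62, adjusted p = 0.549), and Sting1, -0.74 (SE 0.42, adjusted p = 0.426). Irf3 was at 0.06 with an interval of -0.27 to 0.39. Over both Mcl1 states, a comparison added after the values were seen, the Sting1 labels gave no call among the 10 genes or all 15070 (1535 at an unadjusted p under 0.05, 63, or 0.403%, by DESeq2), and Sting1 was at -0.70 (adjusted p = 0.434). The 6 libraries with each Sting1 label overlapped for all of the 10 genes, and 0.133% of all tested genes did not overlap.

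Around the 10 genes, 8 lists of related genes were read in Mcl1 KO against WT, each against the 10.8% of all genes called higher and the 9.43% called lower. Of 23 other DNA and RNA sensors, 2 rose and 1 fell. Aim2, which builds a DNA-sensing inflammasome, rose by 1.64 (SE 0.35, adjusted p = 0.00927, edgeR), from 0.710 ± 0.324 to 2.21 ± 0.406 CPM, and the Ifi200 family gene Ifi211 rose by 1.01 (adjusted p = 0.0147). Mavs, the adaptor of RNA sensing on mitochondria, fell by 0.77 (adjusted p = 0.0155), from 107 ± 21.0 to 62.9 ± 10.2 CPM. In this list 6 of the 23 promoters (26.1%) held the response element, Ifi211 among them.

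Of 25 tested genes of STING traffic and control, 0 rose and 3 fell, with log2 fold changes of -1.001 for the autophagy kinase gene Ulk2 (SE 0.29, adjusted p = 0.0321), -0.85 for the lysosomal cholesterol transporter gene Npc1 (adjusted p = 0.0232) and -0.67 for the ubiquitin ligase gene Marchf8 (adjusted p = 0.0347), and 7 of 25 had a positive change. Of 11 regulators of cGAS, Parp1, a DNA repair enzyme, fell by 0.43 (adjusted p = 0.0412) and none rose. Of 13 nucleases and cGAMP hydrolases, 3 rose and 1 fell: the ribonuclease H2 subunit gene Rnaseh2b rose by 0.72 (adjusted p = 0.0269), and the lysosomal nuclease genes Pld3 by 0.54 (adjusted p = 0.012) and Dnase2a by 0.49 (adjusted p = 0.0348). Enpp3, a paralog of Enpp1, fell by 1.29 (adjusted p = 0.0319), from 59.4 ± 22.9 to 24.3 ± 8.65 CPM, though its libraries overlapped.

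Of 12 genes for carriers of cGAMP across membranes, 3 rose and 2 fell. The gap junction gene Gja1 rose by 1.22 (SE 0.20, adjusted p = 0.00313), from 4.74 ± 1.25 to 11.1 ± 1.29 CPM, the exporter gene Abcc1 by 1.06 (adjusted p = 0.00761) and the ATP-gated channel gene P2rx7 by 0.64 (adjusted p = 0.0372), while the volume-regulated channel subunit gene Lrrc8d fell by 0.83 (adjusted p = 0.0335). Of 24 adaptors and transcription factors beside TBK1 and IRF3, 2 rose and 2 fell. The NF-κB subunit genes Relb and Nfkb2 rose, by 1.11 (adjusted p = 0.0224) and 1.07 (adjusted p = 0.0131). Chuk, the IKKα gene, fell by 0.81 (adjusted p = 0.0151) and the interferon receptor gene Ifnar2 fell by 0.50 (adjusted p = 0.0277). Of 6 partners of ZBP1 in cell death, the necroptosis genes Ripk3, by 1.06 (adjusted p = 0.0179), and Mlkl, by 0.90 (adjusted p = 0.0174), rose, from 1.32 ± 0.428 to 2.75 ± 0.358 and from 6.80 ± 1.47 to 12.6 ± 1.66 CPM, while Zbp1 itself was not called.

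The named genes of the 8 lists that fell, with the interferon targets described next, did so unevenly over the Mcl1 KO libraries. For 10 of the 11 that fell, Marchf8 being the exception, the highest of the 3 Mcl1 KO values was in Mcl1 KO 1, the library with 0.283% of small structured RNAs against 2.37 and 1.36% in the other two. Ulk2 had 59.7, 32.95 and 28.7 CPM in Mcl1 KO against 60.03 to 108 in WT, and Parp1 had 54.9, 42.2 and 40.5 against 59.5 to 66.1. None of the 11 was called with small structured RNAs in the fit (median log2 fold change -0.42 against -0.77 without them), nor without Mcl1 KO 2 (-0.66), while 11 of 11 were called without Mcl1 KO 1. Of the 13 named genes that rose, 2 were called with small structured RNAs in the fit, Gja1 and Abcc1, with a median log2 fold change of 1.01 against 1.06, and 6 without Mcl1 KO 2. None of the 24 changed sign in either fit. Small structured RNA content was highest in Mcl1 KO 2 and Mcl1 KO 3, so it cannot be fully told apart from genotype in the fit that holds it. How the other called genes behaved in these fits is not given, so the losses are not shown to be particular to the named genes. The part of small structured RNA content in them was not tested.

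The output of the pathway was read from 31 interferon target genes. Among them 1 rose, the chemokine gene Ccl5, by 1.12 (SE 0.34, adjusted p = 0.038, edgeR), and 2 fell: Herc6 fell by 0.68 (adjusted p = 0.0455) and Dtx3l fell by 0.64 (adjusted p = 0.019), and their median log2 fold change was 0.01 against -0.005 for all genes. The medians of the other lists ran from -0.20 for the regulators of cGAS to 0.20 for the partners of ZBP1. On total counts without TMM factors, the median of all genes itself was at 0.19 in this comparison. In the libraries labelled Mcl1 Sting1 DKO against Mcl1 KO, no gene of the 8 lists was called (0.0% of all genes), and the medians were 0.18 for the other sensors, 0.11 for STING traffic, 0.003 for regulators of cGAS, -0.12 for nucleases and hydrolases, -0.04 for cGAMP carriers, 0.15 for adaptors and transcription factors, -0.20 for partners of ZBP1 and -0.16 for interferon targets. Of these 31 targets, 9 had a positive change there, against 7508 of all 15070 genes, and in Sting1 KO against WT 5 had one, against 7611 of all genes, with a median of -0.23. No target was called in either comparison. Such targets may vary together, so these counts are not of independent genes. The targets named above with Zbp1 were far apart between WT libraries. Ifit2 had 9.66, 5.25 and 17.07 CPM there, and Cxcl10 had 4.17, 1.36 and 8.09. The counts of positive changes were not repeated with a library left out.

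**Figure D5:**
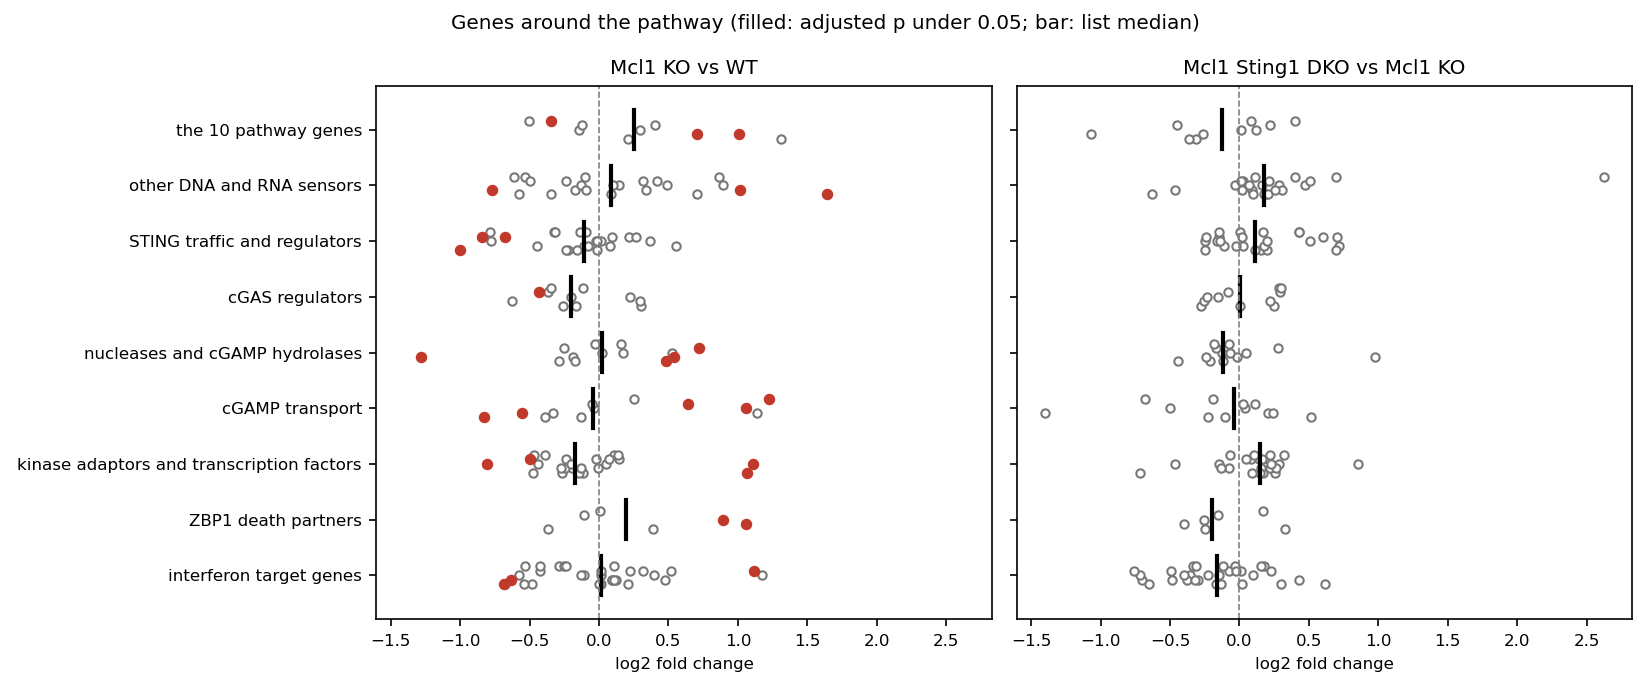
Log2 fold change (edgeR) of the 10 pathway genes and of 8 lists of related genes, 1 point per tested gene, in Mcl1 KO against WT and in Mcl1 Sting1 DKO against Mcl1 KO. Filled points have an adjusted p under 0.05, vertical bars are list medians and points are set apart vertically for legibility. Each list has filled points in the first comparison, from 1 for the regulators of cGAS to 5 for the carriers of cGAMP, and none in the second.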

How the data were processed

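Total RNA of mouse liver was sequenced in 12 libraries, 3 for each of 4 genotypes. The values deposited by the authors are counts, not normalized, with 1 whole number for each Ensembl gene in a library. STAR, featureCounts and the GRCm39 build are named in the submitters' processing notes, while the annotation release and the use of strand are not given in the sources used here, so reads of overlapping genes may have been counted for either gene or for neither. The labels name the RNeasy Plus Mini kit and the study's methods another RNeasy kit. The study names a platform for its differential expression but no test.

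From the counts, log2 fold changes were computed with edgeR 4.0.16 (TMM, filterByExpr by genotype, glmQLFit and glmQLFTest, common dispersion 0.0699, 12 libraries in 1 fit without covariates, Benjamini-Hochberg adjustment over 15070 genes, threshold 0.05, two-sided) in R 4.3.3. Standard errors were taken from the F statistic and intervals are at 95%. DESeq2 1.42.0 was an alternative. TPM used summed exon lengths of GENCODE vM39, in which 1018 identifiers have none (at most 0.101% of counts in a library). Tables and figures were made with Python 3.11.15, pandas 2.3.3, numpy 2.4.6 and matplotlib 3.10.9. The test was checked on simulated data of Mcl1 KO against WT, where it recovered 190 of 199 genes changed by 2 on the log2 scale among 14966 with 12 false calls. The simulation gave each gene the common dispersion. Changes called among the 10 pathway genes were smaller than 2, so it does not show recovery at their size. Same-genotype libraries gave a chi-square of 43.2 to 314 per degree of freedom over genes, so none was a copy of another. Libraries with the same number did not deviate together (r from -0.541 to 0.251), and the numbers were not used as pairs.

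The 10 genes and the lists were chosen with earlier results of these data known. Named beside them were up to 4 called genes per list, those with the largest change, the 5 genes most like Cgas, Sting1 and Zbp1, and the targeted genes. Atrip was named for its overlap, S100a8 and Gbp5 with values after these were seen. The 2 comparisons over both backgrounds and the scaling by total counts were added after the values were seen. Other alternatives were RLE factors, no filter, the compared groups alone, a replicate block, 2 covariates and leaving out each library. Intervals reflect 3 libraries per group, and the depth of 28826367 to 45266387 counts limits Cgas most, with 7 to 50 counts per library.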

Additional observations from a re-analysis of the deposited data

How the results depend on the processing

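In Mcl1 KO against WT, where 3 of the 10 genes were called, DESeq2 called 4, against 23.3% of all genes it tested. Of the 10, 1 was called with no filter on low counts (Sting1), with the compared groups alone (Sting1) and with Y-linked expression as a covariate (Enpp1), and 0 adjusted for small structured RNA content. For the other fits listed here, no share of all tested genes called stands beside the counts, so they do not set the 10 genes apart. Leaving out 1 library gave 0 to 3, with 0 without WT 2 or Mcl1 KO 2. RLE factors called Sting1 and Ifi204 (Irf3 adjusted p = 0.0519), and total counts without TMM factors called Cgas, Sting1 and Ifi204. In Mcl1 Sting1 DKO against Mcl1 KO, 0 became 1 with DESeq2 (Sting1) and 0 to 1 when 1 library was left out. Over both Sting1 backgrounds, 3 became 1 with no filter (Ifi204), 1 with small structured RNAs (Irf3), 4 on total counts (Cgas, Sting1, Ikbke and Ifi204, with Irf3 at an adjusted p of 0.228 and Enpp1 at 0.151), 4 with DESeq2 (Sting1 gained, adjusted p = 0.0219) and 1 to 3 when 1 library was left out. A replicate block called 2 genes in Mcl1 KO against WT (Ifi204 and Sting1) and 2 over both backgrounds (Ifi204 and Irf3), and 0 elsewhere. The samples share only a number. The causes were not tested.

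Of the 24 named genes of the related lists called in Mcl1 KO against WT (13 higher, 11 lower), none changed sign under any alternative run. Calls kept were 13 and 3 on total counts, 10 and 8 with no filter, 6 and 0 with the compared groups alone, 11 and 10 with the replicate block, 6 and 2 with Y-linked expression and 2 and 0 with small structured RNAs, and with DESeq2 or RLE factors no call was lost. Leaving out 1 library kept 3 to 13 of those higher, fewest without WT 2, and 0 to 11 of those lower, fewest without Mcl1 KO 2. How many of all called genes kept their call in these fits is not given, so the losses are not shown to be particular to the named genes.

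Uncalled log2 fold changes changed sign as follows. On total counts, Tbk1 was at 0.059 and Samhd1 at 0.073 in Mcl1 KO against WT, Irf3 at -0.0029 and Zbp1 at -0.076 in Mcl1 Sting1 DKO against Mcl1 KO, Tbk1 at 0.027, Trex1 at 0.051 and Samhd1 at 0.082 in Mcl1 Sting1 DKO against Sting1 KO, Tbk1 at -0.031, Irf3 at -0.026, Zbp1 at -0.0602 and Enpp1 at -0.035 in the interaction, and Tbk1 at 0.043 and Samhd1 at 0.077 over both backgrounds. With small structured RNAs, Trex1 was at -0.15 and Samhd1 at 0.028 in Mcl1 KO against WT, Irf3 at -0.057 and Ifi204 at -0.019 in Sting1 KO against WT, Trex1 at 0.021 in Mcl1 Sting1 DKO against Sting1 KO, Trex1 at 0.17, Samhd1 at -0.093 and Enpp1 at -0.33 in the interaction, and Trex1 at -0.066 over both backgrounds. With Y-linked expression, Trex1 was at 0.063, Ifi204 at -0.15 and Enpp1 at -0.0061 in Sting1 KO against WT, Samhd1 at 0.025 in Mcl1 Sting1 DKO against Sting1 KO, and Tbk1 at -0.011 and Irf3 at -0.066 in the interaction. Zbp1 was at -0.00045 with the compared groups alone in Mcl1 Sting1 DKO against Mcl1 KO, at 0.0018 without the filter for the Sting1 labels over both Mcl1 states, and with the replicate block at 0.0204 in Sting1 KO against WT, -0.0023 in the interaction and 0.0192 over both Mcl1 states.

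Leaving out 1 library also turned the sign of uncalled values. Zbp1 ran from -0.022 to 0.54 in Mcl1 KO against WT, from -0.033 to 0.11 in Mcl1 Sting1 DKO against Mcl1 KO, from -0.33 to 0.23 in Sting1 KO against WT, from -0.22 to 0.35 in the interaction and from -0.15 to 0.13 over both Mcl1 states. In Sting1 KO against WT, Irf3 ran from -0.019 to 0.055, Ifi204 from -0.16 to 0.25 and Trex1 from -0.24 to 0.102. In Mcl1 Sting1 DKO against Sting1 KO, Samhd1 ran from -0.12 to 0.025 and Trex1 from -0.18 to 0.0066. In the interaction, Enpp1 ran from -0.21 to 0.22 and Samhd1 from -0.014 to 0.26, and over both Mcl1 states Cgas ran from -0.023 to 0.38.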
